A study of Mus musculus with 33 samples.

Results

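Whole lungs of newborn C57/BL mice taken 2 h after birth into 10% oxygen were compared with lungs of fetuses at day 21 of gestation (F21) whose mothers had spent 12 h in 10% oxygen. These 2 groups held 3 arrays each, 6 of the 33 arrays in the series, and were identified by their titles. At birth the lung empties its liquid, fills with gas, receives the whole cardiac output and is exposed to a rise in alveolar oxygen. Epithelial cells of type 2 make surfactant, thin cells of type 1 carry gas exchange, and catecholamines, glucocorticoid and stretch act on all cell layers within minutes to hours. Immediate early genes are transcribed in that window without new protein synthesis, and proliferation of the late fetal lung slows around the same days. Delivery into 10% oxygen limits the rise in oxygen, and the comparison asks which transcripts change within 2 h under that limit.

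The groups used beside these were lungs 6 h after birth into 10% oxygen, F21 lungs of room air (21% oxygen) and lungs 2 h after birth in room air, with 3 arrays each. The labels give the strain C57/BL and no genotype or transgene for any of these groups. The F21 and newborn groups of 10% oxygen differ in birth and also in the time the mother had spent in 10% oxygen, for which the labels give hours in the F21 group alone. The labels name 3 mice per group and no litters, so p-values measure the spread between these lungs. Values are MAS5 signals, the brightness of a probe set scaled to a common array mean of 100, and a log2 change is the mean log2 signal at 2 h minus that at F21 after signals under 10 were set to 10.

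RNA quality differed among the arrays. The Gapdh 3′ to 5′ ratio, which rises when RNA is degraded or incompletely copied, was 1.21, 6.79 and 9.40 on F21 arrays 1, 2 and 3 of 10% oxygen and 3.01, 5.39 and 1.81 on the 2 h arrays, against 0.734 to 1.15 on the 15 room-air lung arrays. The median SD of a probe set within a group was 0.42 at F21 and 0.43 at 2 h in 10% oxygen on the log2 scale, against 0.29 to 0.36 in room air. All arrays carried high signals of the lung markers Sftpc (20943 to 40889 over the 6 arrays compared) and Ager (1020 to 7803). Some liver markers were high on F21 array 2. The summed signal of 24 liver genes was 4138 there, against 652 and 993 on F21 arrays 1 and 3. Albumin (Alb) read 2160 on array 2 against 84.6 and 65.3 on the other F21 arrays, and Apoa1 read 576 against 8.7 and 20.9. The fetal liver marker Afp was dim and read 11.1 against 59.1 and 65.9. Their part in the results below was not tested beyond the fits without single arrays.

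Of 5892 probe sets tested with limma, 33 passed an adjusted p of 0.05, or 0.56%. At 2 h 21 of them were higher (0.356%) and 12 were lower (0.204%), and none of the 33 had overlapping groups. Groups of any probe set did not overlap in 18.5% of those tested. The 33 probe sets named 28 genes, 18 that rose and 10 that fell, while 4 probe sets matched several genes or none and are not named. The rises held immediate early regulators (Dusp1, Egr1, Zfp36), transcripts of alveolar epithelial cells (Chil1, Lyz2, Scd1, Emp2, Limch1) and, among others, Gpx3, Txnip and Inmt. The falls held mitotic genes (Ccnb2, Cdc20, Cdk1), nuclear proteins (Tmpo, H2ax, Npm1, Ran, Trim28), the fetal growth factor Igf2 and the chaperone Hsp90b1. The count depended on single arrays. It was 7 without 2 h array 3, 9 without 2 h array 2, 13 without 2 h array 1 or F21 array 3, 29 without F21 array 2 and 55 without F21 array 1. Tmpo, Chil1, Lyz2 and Inmt passed in all 6 of these fits, Dusp1 failed in 1 of them, Sphk1 in 2 and the other named genes in 3 to 5. Chil1 and Sphk1 were in the top 40% of signals on no F21 array and entered the test through the newborn arrays, where they were high.

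**Figure D1:**
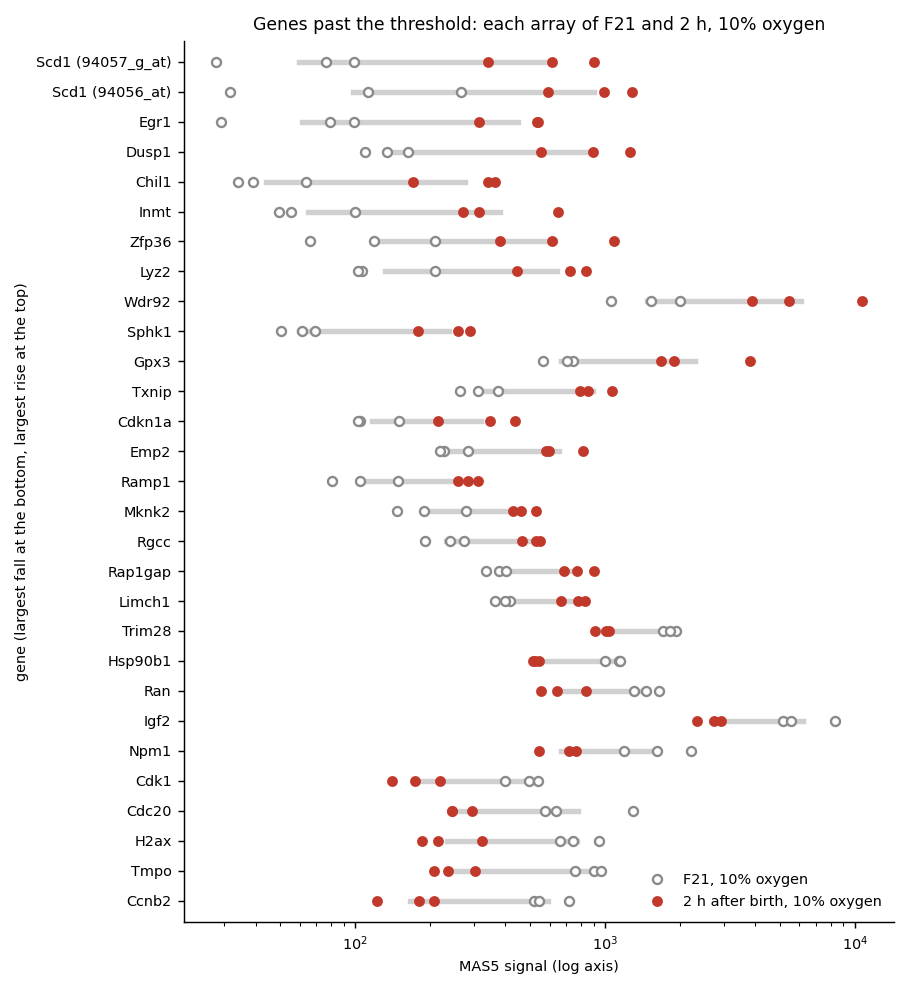
MAS5 signals (log axis) of the 29 named probe sets past the threshold, one row per probe set (Scd1 has 2), with the 3 F21 arrays as open circles, the 3 arrays at 2 h as filled circles and a grey bar joining their geometric means. In every row the 3 arrays of one group lie beyond all 3 of the other, from Scd1 at the top (log2 change 3.27) to Ccnb2 at the bottom (-1.83).

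Immediate early genes had the highest median log2 change of the lists with over 20 genes tested. Of 41 such genes on the array 36 were tested, and 3 rose and none fell, where 0.365% of the 4660 genes tested rose. At an unadjusted p under 0.05, 15 were higher and none was lower, against 5.39% of all genes higher and 5.88% lower. In 21 of the 36 all 2 h arrays exceeded all F21 arrays, which held for 8.33% of all genes. The median log2 change of the list was 0.84, against -0.02 over all genes, and stayed between 0.55 and 0.98 when single arrays were left out. In room air the same list had a median of 0.77.

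Dusp1, a phosphatase that inactivates MAP kinases, read 109, 163 and 135 at F21 and 892, 1255 and 557 at 2 h. The lowest newborn array, at 557, exceeded the highest fetal array, at 163, and the log2 change was 2.68 ± 0.40 (SE; adjusted p = 0.00805, limma). Egr1, a zinc finger transcription factor induced by growth factors and stretch, read 99.1, 29.1 and 79.4 at F21 and 538, 313 and 537 at 2 h, a log2 change of 2.87 ± 0.54 (adjusted p = 0.0246). Zfp36, which binds AU-rich mRNA and speeds its decay, read 209, 119 and 65.8 at F21 and 614, 380 and 1083 at 2 h, a log2 change of 2.42 ± 0.46 (adjusted p = 0.026). By 6 h the mean signals of Egr1 and Zfp36 were 203 and 319, and that of Dusp1 was 652. Against F21, the 6 h changes of Egr1 (1.41, adjusted p = 0.208) and Zfp36 (1.31, adjusted p = 0.167) did not pass, and that of Dusp1 did (2.05, adjusted p = 0.0132).

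Other members moved as far without passing. The list's largest log2 change was that of Fos, a subunit of the AP-1 transcription factor, at 3.75 ± 0.97 (adjusted p = 0.098). Its signals were 27.7, 44.3 and 42.7 at F21 and 527, 469 and 520 at 2 h, so the groups lay far apart although the fit did not call it. The fit draws its spread also from the 6 h arrays, whose part in this was not tested. Klf2, a Krüppel-like factor of endothelium that responds to flow, read 12.3, 142 and 9.6 at F21 and 382, 420 and 229 at 2 h (log2 change 3.68, adjusted p = 0.0647). F21 array 2 was the high one of its group. Atf3, a stress-induced repressor, read 66.9, 41.7 and 47.4 and then 724, 439 and 141 (2.80, adjusted p = 0.098). Fos and Atf3 were named after their values had been seen. Both, like Ccn1 of this list, were in the top 40% of signals on no F21 array. They entered the test and the counts of the list through newborn arrays, where they were high. Nfkbia, the inhibitor of NF-kappa-B, had a log2 change of 1.13 (adjusted p = 0.0612) and Klf6 one of 1.45 (adjusted p = 0.134), with no overlap in either. At the other end Gadd45b, Gadd45g and Dusp2 had log2 changes of -0.83, -0.54 and -0.44, none past the threshold.

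Klf4, the Krüppel-like factor on which the study centered, read 42.5, 157 and 121 at F21 and 229, 340 and 87.6 at 2 h in 10% oxygen. The third newborn array lay below 2 of the 3 fetal arrays. Its log2 change was 1.03 ± 0.53 (adjusted p = 0.485), against 2.47 in room air (adjusted p = 0.00403), and the difference between these changes, -1.45, did not pass (adjusted p = 0.357). Among the 10 Krüppel-like factors tested none passed, and the list's median of 0.12 ran from -0.096 to 0.52 without single arrays, so that its sign depends on them. Klf5 had a log2 change of -0.13. Of the other genes that the study followed, Cdkn1a, the cyclin-dependent kinase inhibitor p21, rose from 104, 150 and 102 to 214, 435 and 347 (log2 change 1.44, adjusted p = 0.0381), a second probe set giving 1.33 without passing. The limma fit over 24 lung arrays gave Cdkn1a a log2 change of 1.50 in room air (adjusted p = 0.0685). In that fit its change of 1.44 in 10% oxygen did not pass either (adjusted p = 0.101). Acta2, Col1a1, Fn1 and Tnc, products of fibroblasts and myofibroblasts, had log2 changes of -1.13, -0.95, 0.25 and -0.84, and none passed. The study had singled out Klf4 by its change after birth in room air, on the room-air arrays used here.

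The 250 bases before the start of Dusp1 and Zfp36 are shown since both are immediate early genes that rose, and the known elements of such promoters can be read in them. Sequences are from RefSeq (GRCm38.p6) and run 5′ to 3′ on the strand of the gene. Capitals mark in Dusp1 the cyclic AMP response element TGACGTCA (143 to 136 bases before the start; chr17:26508473-26508722, minus strand) and in Zfp36 a CArG box, the site of serum response factor (58 to 49 bases before the start; chr7:28379229-28379478, minus strand).
Dusp1: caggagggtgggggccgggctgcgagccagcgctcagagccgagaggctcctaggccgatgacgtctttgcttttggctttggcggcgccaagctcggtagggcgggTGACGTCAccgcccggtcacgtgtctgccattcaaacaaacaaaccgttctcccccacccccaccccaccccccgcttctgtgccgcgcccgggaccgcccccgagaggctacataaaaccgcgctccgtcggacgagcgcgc
Zfp36: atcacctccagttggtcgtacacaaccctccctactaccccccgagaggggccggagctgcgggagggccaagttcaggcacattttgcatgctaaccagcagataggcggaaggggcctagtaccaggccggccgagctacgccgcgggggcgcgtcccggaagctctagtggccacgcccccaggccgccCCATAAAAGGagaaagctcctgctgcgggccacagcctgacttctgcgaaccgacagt
Searched on both strands, TGACGTCA was present in the 250 bases of 5 of the 31 immediate early genes with a window (16.1%), in 2.93% of the 3755 genes tested that had one and in 1.55% of all 32851 windows. A CArG box was present in 1 of the 31 (3.23%), in 1.7% of the genes tested and in 1.47% of all windows. The motifs did not overlap in these windows. A match describes letters in the window and not a bound site.

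**Figure D2:**
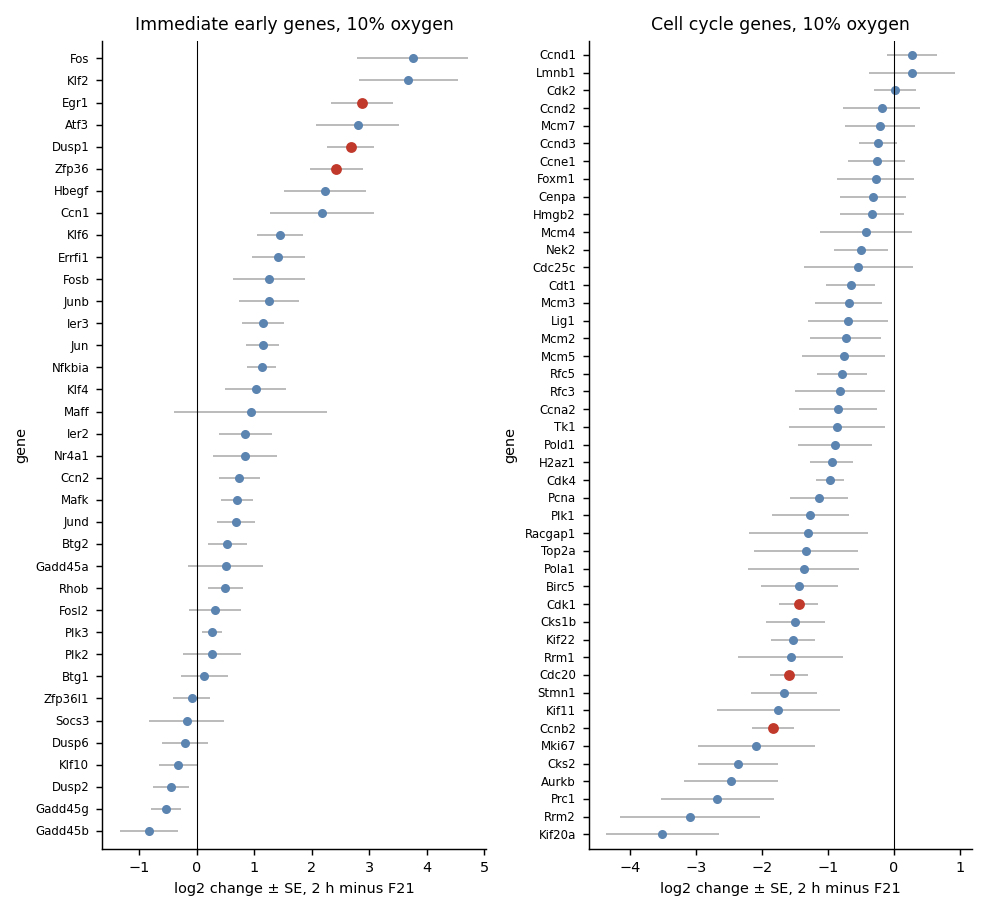
Log2 change (2 h minus F21 in 10% oxygen) with its SE for the 36 immediate early genes (left) and the 45 cell cycle genes (right) that were tested, red where the adjusted p was under 0.05. Most immediate early genes lie right of 0 and 42 of the 45 cell cycle genes lie left of it.

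Genes of DNA replication and mitosis lay lower at 2 h. Of 65 on the array 45 were tested, and 3 fell and none rose, where 0.215% of all genes tested fell. At an unadjusted p under 0.05, 17 were lower and none was higher, against 5.88% of all genes lower and 5.39% higher. In 21 all newborn arrays lay below all fetal ones, which held for 10.3% of all genes. The median log2 change was -0.88, and 42 of 45 had a negative sign, as did 2395 of all 4660 genes tested. Summed signals of the 65 genes were 10408, 10573 and 11695 at F21 and 6051, 5270 and 5625 at 2 h, with no overlap. The median remained between -1.01 and -0.86 without any single array and was -1.03 without F21 arrays 2 and 3, the pair of highest Gapdh ratio. In bulk tissue fewer cells of a type and less RNA per cell cannot be told apart.

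Ccnb2, a mitotic cyclin, read 522, 546 and 717 at F21 and 207, 180 and 122 at 2 h, a log2 change of -1.83 ± 0.31 (adjusted p = 0.0173). Cdc20, the activator of the anaphase-promoting complex, read 638, 577 and 1292 and then 294, 243 and 245 (-1.59 ± 0.29, adjusted p = 0.0229). F21 array 3 was the highest in both. Cdk1, the kinase that Ccnb2 activates, read 398, 496 and 541 and then 218, 173 and 141 (-1.44 ± 0.29, adjusted p = 0.0381). Larger differences stood on probe sets that were dim at 2 h and did not pass. Kif20a, a kinesin of cytokinesis, read 220, 204 and 284 at F21 and 14.9, 55.8 and 10.4 at 2 h (log2 change -3.51, adjusted p = 0.0825), and Rrm2, a ribonucleotide reductase subunit, read 195, 109 and 125 and then 36.2, 11.9 and 6.1 (-3.09, adjusted p = 0.273). Both were named after their values had been seen. Both were in the top 40% of signals on no 2 h array. They entered the test and the counts of the list through the F21 arrays, where they were high. Cdk4, a kinase of the G1 phase, had a log2 change of -0.97 (adjusted p = 0.054). Cyclins of G1 stood apart from these in value, with Ccnd1 at 0.28, Ccnd2 at -0.18 and Ccnd3 at -0.24, none past the threshold.

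Tmpo and H2ax, nuclear genes outside the list, fell beside them. Tmpo, which encodes lamina-associated polypeptides, read 756, 903 and 962 at F21 and 301, 207 and 235 at 2 h. Every newborn array lay below every fetal array, and the log2 change was -1.83 ± 0.24 (adjusted p = 0.00520). A second, dimmer Tmpo probe set gave -0.70 and did not pass. H2ax, the histone variant phosphorylated at DNA breaks, read 744, 660 and 950 and then 186, 321 and 214 (-1.73 ± 0.28, adjusted p = 0.0131). Their room-air changes were smaller in value, -0.60 and -0.47, and did not pass. F21 levels differed between oxygen groups, with Tmpo 1.39 and H2ax 1.49 higher on the log2 scale in F21 lungs of 10% oxygen than in those of room air (adjusted p = 0.00316 and 0.000581). The room-air F21 means were 360 and 277, and the 2 h means in 10% oxygen were 248 and 240.

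The same held for the list. F21 lungs of 10% oxygen had a median log2 level 0.59 higher than F21 lungs of room air over the 45 cell cycle genes, 6 of them past the threshold and none lower, where 3.11% of all genes passed as higher. Against the F21 lungs of room air the 2 h lungs of 10% oxygen had a median of -0.48, and room-air lungs at 2 h one of -0.47. These comparisons share arrays with each other. Cdc20 and Cdk1 were 1.04 and 1.13 higher at F21 in 10% oxygen than in room air (adjusted p = 0.0269 and 0.0403), Ccnb2 by 0.42 (adjusted p = 0.373). The difference of the 2 h change between the oxygen groups passed for none of the 45 genes, with values of -1.04 for Ccnb2, -0.22 for Cdc20 and -0.06 for Cdk1.

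The 250 bases before the start of the 3 mitotic genes that fell are shown because promoters of this class are known for CCAAT boxes and a cell cycle homology region (CHR, TTTGAA). Capitals mark both, on either strand, so that CCAAT on the opposite strand reads ATTGG.
Ccnb2: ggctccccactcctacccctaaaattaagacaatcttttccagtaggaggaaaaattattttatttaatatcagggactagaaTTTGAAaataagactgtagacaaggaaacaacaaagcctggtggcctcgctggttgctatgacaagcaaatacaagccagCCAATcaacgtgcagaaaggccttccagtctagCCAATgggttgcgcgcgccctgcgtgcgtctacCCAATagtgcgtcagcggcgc
Cdc20: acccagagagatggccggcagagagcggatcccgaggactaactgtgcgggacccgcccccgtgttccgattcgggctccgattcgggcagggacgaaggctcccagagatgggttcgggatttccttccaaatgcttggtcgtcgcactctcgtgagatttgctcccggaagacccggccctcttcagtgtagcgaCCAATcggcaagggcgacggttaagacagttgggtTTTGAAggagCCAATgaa
Cdk1: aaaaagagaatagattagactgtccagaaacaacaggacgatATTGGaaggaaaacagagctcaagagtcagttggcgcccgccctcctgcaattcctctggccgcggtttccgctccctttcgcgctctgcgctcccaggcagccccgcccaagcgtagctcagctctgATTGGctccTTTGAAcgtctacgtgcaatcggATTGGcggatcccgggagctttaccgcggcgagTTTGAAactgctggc
The windows lie at chr9:70421555-70421804, chr4:118437344-118437593 and chr10:69352913-69353162, all on the minus strand. Ccnb2 holds 3 CCAAT boxes, the nearest 21 bases before the start, and CHR letters at 167, upstream of all 3 boxes. Cdc20 holds CHR letters at 18 and CCAAT boxes at 53 and 8, and Cdk1 holds CHR letters at 71 and 15 and 3 inverted CCAAT boxes. The motifs do not overlap each other in these windows. Of the 35 cell cycle genes tested that had a window, 27 held CCAAT (77.1%) and 11 held TTTGAA (31.4%). These shares were 40.4% and 12.6% over all genes tested, and 33.8% and 16% over all windows.

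Some transcripts of alveolar epithelial cells rose. Of 20 type 2 cell and surfactant genes tested 3 rose and none fell (0.365% of all genes rose), 10 were higher at an unadjusted p under 0.05 (5.39% of all genes) and none was lower, and the median log2 change was 0.68. It stayed between 0.57 and 0.83 without single arrays. Chil1, a chitinase-like protein of type 2 cells and macrophages, read 39.1, 63.7 and 34.1 at F21 and 340, 362 and 171 at 2 h, a log2 change of 2.65 ± 0.37 (adjusted p = 0.00595). Lyz2, the lysozyme of the same cells, read 106, 209 and 103 and then 838, 722 and 444 (2.29 ± 0.32, adjusted p = 0.00595). Scd1, the desaturase that makes monounsaturated fatty acids, read 113, 264 and 31.7 and then 590, 1280 and 991 on its brighter probe set (3.21 ± 0.61, adjusted p = 0.026) and changed by 3.27 on the other. In all 3 genes every newborn array exceeded every fetal one.

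Surfactant proteins themselves did not pass. Sftpc, the type 2 cell surfactant protein with the brightest signal of the list, read 34741, 35796 and 20943 at F21 and 40889, 34919 and 36521 at 2 h, overlapping groups with a log2 change of 0.33 (adjusted p = 0.712). Sftpb, which orders the surfactant film, read 4959, 2770 and 889 and then 5980, 4735 and 7321 (1.36, adjusted p = 0.219). F21 array 3, whose Gapdh ratio was 9.40, was the lowest for Sftpc, Sftpb and Scd1, and the summed signal of the 22 type 2 genes on the array was 29739 there against 50549 and 51945 on the other F21 arrays and 57177 to 61900 at 2 h. Most of this sum was Sftpc, with 20943 of the 29739 on F21 array 3. Without that array the median of the list was 0.66, Chil1 and Lyz2 passed, and both Scd1 probe sets did not (adjusted p = 0.0876 and 0.0728, limma).

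Of 12 type 1 cell genes 2 rose (0.365% of all genes did), and the median was 0.48. Emp2, a tetraspan membrane protein of the alveolar wall, read 227, 220 and 283 at F21 and 597, 814 and 581 at 2 h (1.44 ± 0.24, adjusted p = 0.0173), and it no longer passed when any one of the 2 h arrays was left out (adjusted p = 0.0528 to 0.112). Limch1, an actin-binding protein, read 416, 397 and 363 and then 780, 834 and 669 (0.95 ± 0.19, adjusted p = 0.0381), and a second probe set gave 0.47 without passing. Both had narrow groups that lay apart. Ager, the receptor that marks type 1 membranes, read 5579, 2702 and 1020 and then 7719, 4741 and 7803 (1.40, adjusted p = 0.219), with overlap. Igfbp2, the list's member with the largest negative value, read 314, 332 and 519 and then 143, 128 and 119 (-1.55, adjusted p = 0.058). Scgb1a1, the secretoglobin of club cells, read 549, 1152 and 108 and then 1987, 2794 and 2638 (2.58, adjusted p = 0.054). At 6 h its log2 change of 3.47 passed (adjusted p = 0.00429). Its F21 level in 10% oxygen differed by -2.15 on the log2 scale from that in room air (adjusted p = 0.0126, limma). The 2 h lungs of 10% oxygen differed from F21 lungs of room air by 0.43 (adjusted p = 0.687, limma).

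Genes of fatty acid and sterol synthesis had 19 of 22 positive values, where 2265 of all 4660 genes tested had one. The median of the list was 0.47, or 0.28 without F21 array 3. Scd1 was the one that rose (0.365% of all genes did), and 6 were higher at an unadjusted p under 0.05 (5.39% of all genes). Fdps, which makes farnesyl diphosphate for cholesterol, read 118, 129 and 80.5 and then 236, 211 and 333 (1.25, adjusted p = 0.0946). Fasn, fatty acid synthase, had a log2 change of 0.94 (adjusted p = 0.239). The groups of both lay apart. Macrophage genes, which share Lyz2 with the type 2 list, had a median of 0.46 over 19 tested, Lyz2 alone rising (0.365% of all genes did). C1qc, a complement subunit of macrophages, read 115, 68.4 and 50.7 and then 281, 246 and 148 (1.56, adjusted p = 0.0727). The macrophage receptor Csf1r was dim on its brighter probe set (38 to 143), Cd68 read 13.9 to 95.4 and Adgre1 5.3 to 71.5, with overlapping groups. A dimmer probe set of Csf1r averaged 55.8 at F21 and 7.0 at 2 h without overlap (log2 change -2.42, adjusted p = 0.527), and its difference from the change in room air passed (-4.60, adjusted p = 0.0448).

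F21 levels of some of these genes were low beside F21 lungs of room air, and not in the epithelial lists alone. The difference between the F21 groups passed for 494 of 6931 probe sets (7.13%). Emp2 averaged 243 in F21 lungs of 10% oxygen and 1733 in those of room air, a log2 difference of -2.82 (adjusted p = 4.54e-07). Lyz2 averaged 139 against 1039 (-2.83, adjusted p = 0.000205), Chil1 45.6 against 275 (-2.62, adjusted p = 0.000266) and the brighter Scd1 probe set had a log2 difference of -3.71 (adjusted p = 0.000205). At 2 h in 10% oxygen Emp2 averaged 664, Lyz2 668 and Chil1 291. Set against F21 lungs of room air, the 2 h lungs of 10% oxygen had log2 differences of -1.38 for Emp2, -0.54 for Lyz2, 0.03 for Chil1 and -0.50 for Scd1. The sign of Emp2, Lyz2 and Scd1 therefore depends on which F21 group is the baseline. Over the type 2 list the F21 difference had a median of -0.63, with 5 of 20 genes lower past the threshold, where 4.25% of all genes were, and none higher. The macrophage list, which shares Lyz2, had a median of -0.65, with 5 of 19 lower and none higher. Limch1 of the type 1 list differed by -0.50 without passing (adjusted p = 0.111, limma). Igfbp2 of that list was 1.45 higher in 10% oxygen (adjusted p = 0.00775, limma). RNA quality differed between these F21 groups as given above, and oxygen, array processing and RNA quality cannot be told apart in their comparison.

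**Figure D3:**
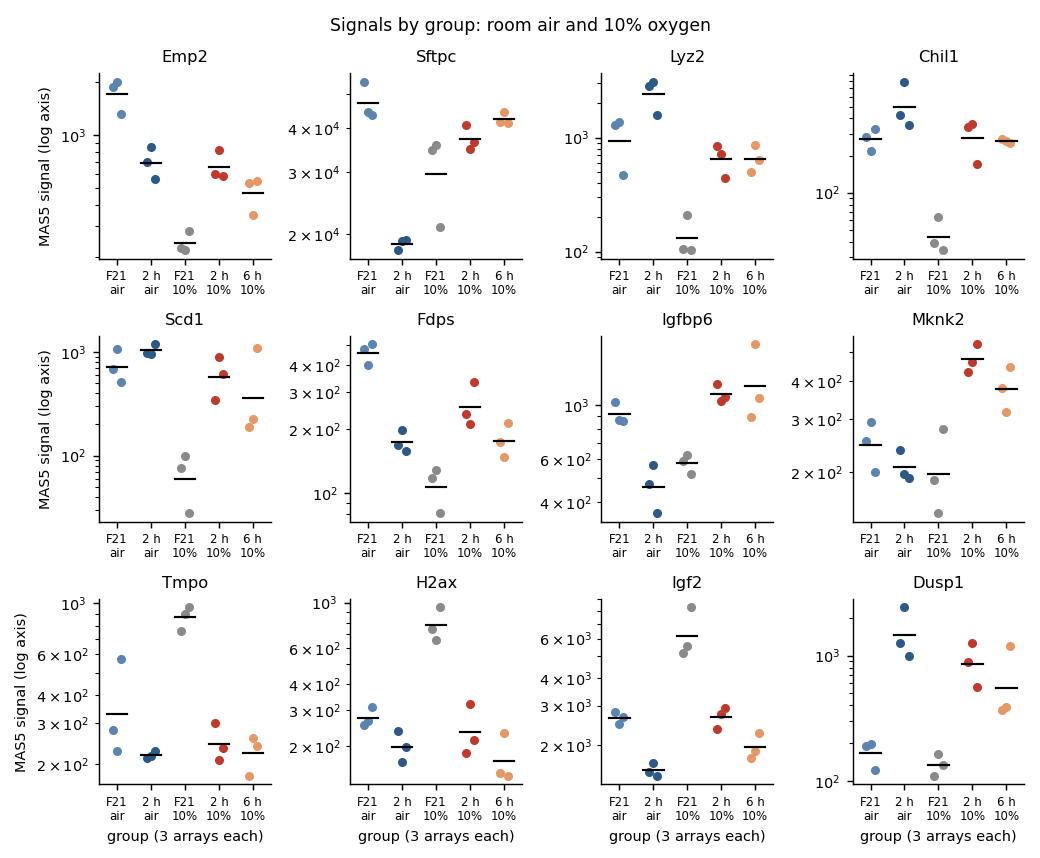
MAS5 signals (log axis) of 12 genes in F21 and 2 h lungs of room air and F21, 2 h and 6 h lungs of 10% oxygen, 3 arrays each, with a bar at the geometric mean. Emp2, Lyz2, Chil1, Scd1 and Fdps are lowest and Tmpo, H2ax and Igf2 are highest in F21 lungs of 10% oxygen, while Dusp1 is low in both F21 groups.

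Whether a change in 10% oxygen differed from that in room air was tested as the difference of the 2 h changes over all 24 lung arrays. It passed for 33 of 6931 probe sets (0.476%), 22 with a higher (0.317%) and 11 with a lower value (0.159%) in 10% oxygen. Of the genes that passed in 10% oxygen it passed for Emp2 and Mknk2. Emp2 rose in 10% oxygen and fell in room air, from a mean of 1733 to 701 (log2 change -1.30, adjusted p = 0.00473), a difference of 2.74 ± 0.36 (adjusted p = 0.000528). On its dimmer probe set Mknk2, a kinase that phosphorylates the cap-binding factor eIF4E, read 189, 147 and 277 at F21 and 429, 463 and 528 at 2 h in 10% oxygen (1.26, adjusted p = 0.0482) against -0.24 in room air, a difference of 1.50 ± 0.34 (adjusted p = 0.0448). It was at the edge of the threshold in both tests, and its brighter probe set changed less in value at 2 h (0.50, adjusted p = 0.418). Fdps, Igfbp6 and Sftpc, which did not pass in 10% oxygen, had differences of 2.65, 1.94 and 1.67 (adjusted p = 0.00769, 0.0147 and 0.0404). After quantile normalization the difference for Sftpc was -0.18 and its change in 10% oxygen was -0.054, so that its direction depends on the scaling. Of 12 fits that left out single arrays, the difference failed in 11 for Mknk2, in 10 for Sftpc, in 1 for Igfbp6 (without room-air 2 h array 3) and in none for Emp2 and Fdps. Of the 29 named probe sets that passed in 10% oxygen, 27 had the same sign in room air, and 9 of these also passed there. In either direction 4.24% of all probe sets passed in room air. The share of all probe sets with the same sign in both was not counted. The exceptions in sign were Emp2 and Mknk2.

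Genes outside these lists completed the rises. Inmt, an N-methyltransferase of lung fibroblasts, read 49.7, 55.5 and 100 at F21 and 270, 312 and 646 at 2 h (2.54 ± 0.37, adjusted p = 0.00661). Its mean reached 744 at 6 h. Sphk1, which makes the lipid signal sphingosine 1-phosphate, read 69.3, 61.1 and 50.6 and then 179, 289 and 258 (1.99, adjusted p = 0.0131). Gpx3, a secreted glutathione peroxidase, read 744, 567 and 703 and then 1678, 1882 and 3804 (1.78, adjusted p = 0.0229), the third newborn array standing highest. Txnip, the inhibitor of thioredoxin, rose on its brighter probe set from 310, 372 and 262 to 858, 1064 and 797 (1.53, adjusted p = 0.0229), while another gave -0.61 without passing. The probe set annotated as Wdr92 rose from 1530, 1988 and 1059 to 5463, 10685 and 3885 (2.05, adjusted p = 0.018) and averaged 18988 at 6 h. Ramp1, a partner of the calcitonin receptor-like receptor, Rgcc, a regulator of cell cycle entry, and Rap1gap, which inactivates the GTPase Rap1, had log2 changes of 1.39, 1.15 and 1.08.

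Falls outside the cell cycle included Igf2, the imprinted fetal growth factor, which read 5162, 5540 and 8300 at F21 and 2344, 2743 and 2915 at 2 h (-1.22 ± 0.22, adjusted p = 0.0229). It was 1.23 higher on the log2 scale in F21 lungs of 10% oxygen than in those of room air (adjusted p = 0.000715), and the 2 h lungs differed from the latter by 0.01. Among the 20 genes of the IGF axis and imprinted growth genes Igf2 was the one that fell (0.215% of all genes did). Hsp90b1, a chaperone of the endoplasmic reticulum, read 999, 1139 and 1150 and then 517, 523 and 546 (-1.05 ± 0.20, adjusted p = 0.0274). Ran, the GTPase of nuclear transport, Npm1, a nucleolar chaperone, and Trim28, a corepressor of zinc finger proteins, changed by -1.14, -1.28 and -0.88 (adjusted p = 0.0286, 0.029 and 0.0365). Each had groups that lay apart, and each fell in room air as well, by 0.74, 1.05 and 0.75 on the log2 scale.

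**Figure D4:**
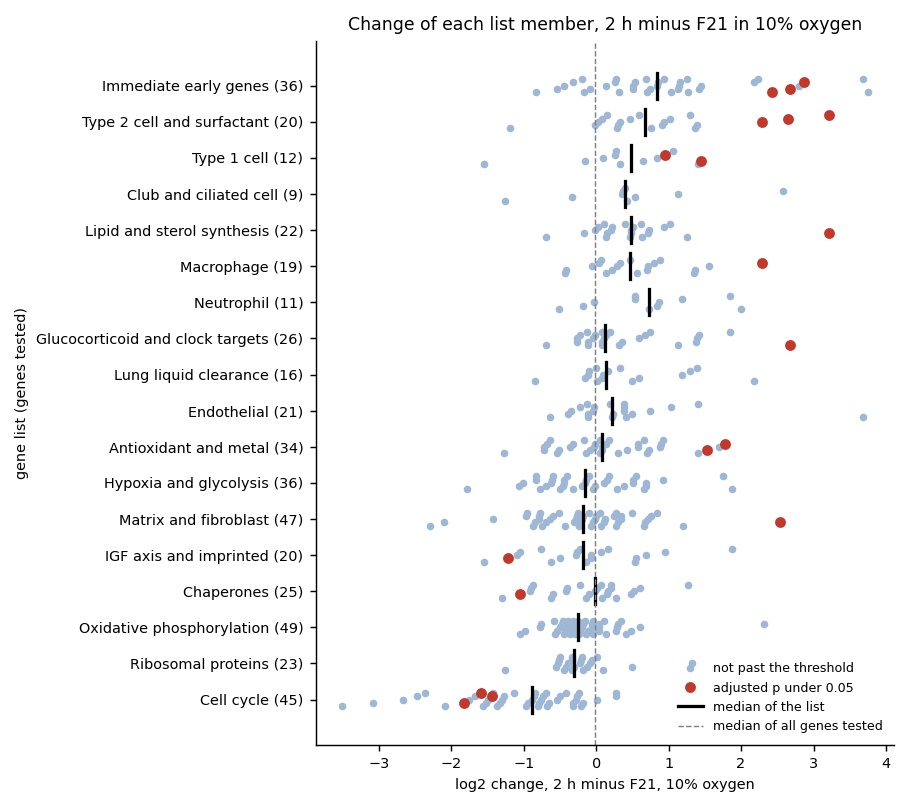
Log2 change (2 h minus F21 in 10% oxygen) of each tested member of 18 gene lists, red where the adjusted p was under 0.05, with the median of each list as a black bar and that of all genes tested (-0.02) as a dashed line. The medians run from 0.84 for immediate early genes to -0.88 for cell cycle genes.

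No gene of hypoxia response and glycolysis passed. Over 36 tested the median was -0.15, or 0.021 without F21 array 3, and an unadjusted p under 0.05 was reached by 1 gene with a higher and 4 with a lower value (5.39% and 5.88% of all genes). The 4 were the glycolytic enzymes Pgam1, Ldha and Tpi1 and the collagen cross-linking enzyme Lox. Pgam1 read 351, 434 and 920 at F21 and 105, 167 and 196 at 2 h (-1.78, adjusted p = 0.11), and Ldha, lactate dehydrogenase, read 1484, 1470 and 2361 and then 614, 907 and 1016 (-1.06, adjusted p = 0.18). F21 array 3 was the high one in both. Hif1a, the oxygen-regulated transcription factor subunit, had a log2 change of -0.20, Vegfa of -0.16 and Hmox1 of 0.18. Igfbp3 was the higher one, at 14.9, 35.5 and 48.9 and then 84.3, 121 and 126 (1.88, adjusted p = 0.113). It was in the top 40% of signals on no F21 array and entered the test through the newborn arrays, where it was high.

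Lung liquid clearance is driven by sodium transport under glucocorticoid control, and of 16 of its genes tested none passed. Sgk1, the kinase that keeps sodium channels in the membrane, read 91.7, 70.1 and 53.1 and then 144, 452 and 95.5 (1.40, adjusted p = 0.277). Newborn array 2 was the high one. In room air its log2 change was 2.87 (adjusted p = 0.00264), and the difference of the changes did not pass (-1.47, adjusted p = 0.388). Aqp1, the water channel of capillaries, had a log2 change of 1.29 (adjusted p = 0.277). Of 26 targets of glucocorticoid and the clock Dusp1 alone rose (0.365% of all genes did). An unadjusted p under 0.05 was reached by 6 with a higher value and none with a lower one (5.39% and 5.88% of all genes). All 2 h arrays exceeded all F21 arrays in 8 of the 26, which held for 8.33% of all genes. The median was 0.12, with a range of 0.061 to 0.34 without single arrays and a value of 0.46 without F21 arrays 2 and 3. In room air it was 0.66, and the difference between the medians was not tested.

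Matrix and fibroblast genes had a median of -0.19 over 47 tested. Inmt was the one that passed, and it rose (0.365% of all genes did). At an unadjusted p under 0.05, 11 were lower (5.88% of all genes). Genes of antioxidant defense and metal binding had a median of 0.080 over 34 tested, and Gpx3 and Txnip were the ones that rose (0.365% of all genes did). Col15a1, a basement membrane collagen, read 212, 264 and 358 and then 68.7, 61.6 and 40.1 (-2.29, adjusted p = 0.134). It was in the top 40% of signals on no newborn array and entered the test through the F21 arrays, where it was high. Endothelial and smooth muscle genes had no member past the threshold among 21 and 27 tested, with medians of 0.21 (0.12 to 0.40 without single arrays) and -0.18 (-0.31 to -0.13). Genes of oxidative phosphorylation (49 tested) and cytosolic ribosomal proteins (23) had none either, with medians of -0.25 and -0.31, and the latter was -0.09 after quantile normalization. In room air 10 of the 23 ribosomal and 8 of the 49 oxidative phosphorylation genes fell, where 3.18% of all genes did.

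Markers of other cells and organs gave values to set beside these. Summed signals of 21 neutrophil genes were 1102 to 1457 at F21 and 1671 to 2088 at 2 h, without overlap, and S100a8 read 100, 205 and 131 and then 332, 393 and 239 (1.18, adjusted p = 0.099). The neutrophil median was 0.73 over 11 tested, and -0.02 without F21 arrays 2 and 3. Lcn2 and Padi4 of this list were in the top 40% of signals on no F21 array. They entered the test and the median through newborn arrays, where they were high. The sum of 33 macrophage genes ran from 2298 to 2703 on F21 arrays and from 3489 to 3993 on newborn arrays. For 26 erythroid genes these ranges were 34376 to 42872 and 44508 to 72000. Most of that sum was Hba-a1, which alone read 22503 to 33456 and then 37316 to 57718. Heart and muscle genes summed to 1769 to 2489 and then 1940 to 4570, highest on 2 h array 3, where Nppa read 442. Liver genes summed to 652, 4138 and 993 at F21 and 844 to 1122 at 2 h. Skeletal muscle Acta1 and squamous Krt14 read at most 47.7 and 26 on these arrays, and Cd3e of T cells at most 19.1. Their part in the results was not tested.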

How the data were processed

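RNA of whole lung had been hybridised to 24 Affymetrix MGU74Av2 arrays, 3 per group. The authors made the deposited intensity values with Affymetrix Microarray Suite (MAS5), each array scaled to a target of 100, and no scanner files were used here. From these, signals under 10 were raised to 10 and log2 values fitted with limma 3.58.1 (R 4.3.3; eBayes with trend) over the 9 lung arrays of 10% oxygen, with p-values adjusted by Benjamini-Hochberg over 5892 probe sets that were in the top 40% of signals on at least 3 arrays. Control probe sets (66) were left out. The pooled spread was kept to 10% oxygen, where arrays varied more. Changes in room air, differences from room air and differences between F21 groups were fitted over 24 arrays (6931 probe sets). Replicate numbers did not pair arrays, with correlations of deviations of -0.017, 0.041 and -0.044.

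Probe sets were named from GEO's platform annotation, which can be old. Lists count 1 probe set per gene, that of highest mean. Named genes were the 10 largest rises and falls without overlap, up to 4 members per list of smallest p, the genes the study followed and those that also passed the test against room air. Cell type markers are given beside these. Other genes (Fos, Atf3, Gadd45b, Dusp2, Kif20a, Rrm2, Ccnd1, Ccnd2, Ccnd3, Vegfa, Hmox1, Lox, Ramp1, Rgcc and Rap1gap) were named after their values were seen. The comparison and the 31 lists were chosen with earlier results of these data known. The fit over 9 arrays and the test of the difference from room air were tested on simulated data; the other fits were not. Alternatives covered the floor, filter, scaling, arrays fitted, array weights, RNA quality and the methods' t-test.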

Additional observations from a re-analysis of the deposited data

Results flagged for a closer look

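The 2 h change in 10% oxygen differed from that in room air, by the limma test of the difference over 24 lung arrays, for 5 named genes on the probe set by which each is described. Emp2 changed by 1.44 in 10% oxygen and by -1.30 in room air, a difference of 2.74 (adjusted p = 0.000528). Fdps had 1.25 and -1.39, a difference of 2.65 (adjusted p = 0.00769). Igfbp6, a binding protein of insulin-like growth factors, had 0.94 and -0.996, a difference of 1.94 (adjusted p = 0.0147). Sftpc had 0.33 and -1.33, a difference of 1.67 (adjusted p = 0.0404) that changed sign under quantile normalization. Mknk2 had 1.26 and -0.24, a difference of 1.50 (adjusted p = 0.0448). Emp2 and Fdps stood lower in F21 lungs of 10% oxygen than in those of room air, by the values -2.82 and -2.10 on the log2 scale. The difference passed also for dimmer probe sets of Itgb1 (difference -1.52, adjusted p = 0.0448) and Csf1r (difference -4.60, adjusted p = 0.0448), while the brighter probe set of each did not pass. No test for outlying samples was run within groups, since each held 3 arrays.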

How the results depend on the processing

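Depth is not given by arrays, and 3 of them per group limit the precision. A count of 33 probe sets past the threshold was obtained, and other settings gave 33 with a floor of 1, 38 after quantile normalization, 55 for log2(signal + 16), 51 for the top 30% by median signal, 7 with no filter, 53 for the 6 arrays compared alone, 71 with array weights, 57 with RNA quality (the Gapdh ratio) in the fit and 184 with the spread of all 24 lung arrays. When the baseline was F21 lungs of room air, 376 passed. The methods' t-test, run on the probe sets tested here and not on those left by the detection filter of the methods, gave 168 on the log2 scale and 171 on the linear scale at their threshold of 0.01, and 0 after Benjamini-Hochberg. Leaving out single arrays gave 7 to 55, and leaving out F21 arrays 2 and 3, an alternative chosen after seeing the data, gave 7. The cause of these differences was not tested, except that a wider filter tests more probe sets. Replicate numbers did not pair the arrays, and 1 of 3 F21 arrays correlated best with its own number. With the replicate number as a block, 49 passed in 10% oxygen and 21 for the difference from room air.

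The difference from room air passed for 33 probe sets, for 29 after quantile normalization, 39 for log2(signal + 16), 14 with the 12 arrays of the 4 groups alone, 14 with weights by oxygen level and 10 to 66 without single arrays, the lowest without room-air 2 h array 3 and the highest without F21 array 1 of 10% oxygen. The F21 difference between oxygen groups passed for 494 and stayed between 395 and 517.

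Every one of the 29 named probe sets past the threshold kept its sign under all settings that kept the baseline. Against F21 lungs of room air 10 passed in the same direction and 5 changed sign, to -1.38 for Emp2, -0.54 for Lyz2, -0.33 and -0.50 for the 2 Scd1 probe sets and 0.0055 for Igf2. Of named genes that did not pass, signs also changed under that baseline, to 0.47 for Col1a1, -0.85 for Fdps, -0.53 for Saa3, 1.21 for Pth1r, -0.28 for Gstm1, -0.086 for Aqp1, 0.038 for Cdkn1c, -0.70 for Cyp4b1, -0.065 for Ass1, -0.0071 for Ctrb1, -0.19 for Elovl5, -0.53 for Alas2, 0.64 for Tnc, -0.28 for Ctss, 0.53 for Gadd45g, -0.0066 for Tnni1, -0.0021 for Trp63, 0.42 for Alb, 0.30 for Rbp4, -0.33 for Fn1, -0.34 for Sftpc and 0.45 for Klf5. Quantile normalization turned Sftpc to -0.054 in 10% oxygen and its difference from room air to -0.18. Without single arrays Alb ranged from -2.43 to 0.095 (positive without F21 array 2), Slc25a20 from -1.53 to 0.14 (positive without 2 h array 1) and Cela1 from -0.64 to 0.14 (positive without 2 h array 3), and leaving out F21 arrays 2 and 3 turned Il4ra to -0.075 and Hif1a to 0.19.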

Other observations

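Of 11 vasoactive genes tested none passed at 2 h in 10% oxygen, and 9 had positive values, as did 2265 of all 4660 genes tested. Ace, the angiotensin-converting enzyme of lung capillaries, read 158, 80.3 and 184 at F21 and 220, 369 and 446 at 2 h (log2 change 1.32, adjusted p = 0.098, limma). The groups lay apart. Agt, from which angiotensin is cut, read 102, 174 and 147 and then 183, 273 and 309 (0.85, adjusted p = 0.277).

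Erythroid genes did not share a sign, with 12 positive and 6 negative values among 18 tested. The embryonic globin Hbb-y read 303, 339 and 224 and then 185, 64 and 3.2 (log2 change -2.54, adjusted p = 0.239). Alas2, the first enzyme of heme synthesis in red cells, read 258, 266 and 146 and then 769, 474 and 194 (0.94, adjusted p = 0.418). The acute phase gene Saa3 read 10.5, 8.9 and 38.9 and then 75.8, 118 and 50.9 (2.27, adjusted p = 0.154), and its change at 6 h passed (3.72, adjusted p = 0.00709). Saa3 was in the top 40% of signals on no F21 array and entered the test through the newborn arrays, where it was high.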
